A study of Mus musculus with 3 samples.

Results

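Type 1 conventional dendritic cells (cDC1) were examined in digested mouse liver, from controls and after a wound made by irreversible electroporation (IRE). Cells were selected on their own expression. A barcode entered the cDC1 gate when it had at least 200 detected genes, at least 2 of the 6 genes Xcr1, Clec9a, Naaa, Wdfy4, Itgae and Irf8, with Xcr1 or Clec9a among them, and fewer than 2 of the 4 genes Ccr7, Ccl22, Fscn1 and Il12b, which mark mature dendritic cells. This gate took 463 of the 25263 barcodes with at least 200 genes. It held 256 cells of the control library, 192 cells of the library at day 1 post-injury and 15 cells of the library at day 7. The levels of the gate genes in these cells therefore describe the selection and are not a result.

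Drop-seq, which captures cells in droplets with barcoded beads and counts transcripts by unique molecular identifiers (UMIs), was run on adult C57BL/6 livers in 3 groups of 1 library each. The groups were Sham_control (sham surgery, tissue at 1 day), IRE_1_dpi (IRE, tissue at 1 day) and IRE_7_dpi (IRE, tissue at 7 days). IRE is an electrical injury that kills cells locally and was given as 8 pulses lasting 50 ms each. Tissue was taken with a punch of 4 mm, from the wound or from the matching uninjured area, and 3 livers were pooled for each library. No animal could be told from another, so there were no replicates and no test, and every interval below is a 95% interval that covers counting error only. A gene is called higher or lower when its share of UMIs differed from control by at least 2-fold in gated cells, among genes with at least 30 UMIs over both libraries.

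cDC1 are the dendritic cells that excel at cross-presentation, in which antigen taken up from dying or infected cells is loaded on MHC class I and shown to CD8+ T cells. Their development depends on the transcription factors IRF8 and BATF3 and on the cytokine receptor FLT3. They carry XCR1, the receptor for a chemokine made by natural killer and CD8+ T cells, and CLEC9A, which binds actin laid bare in damaged cells, and in the liver they are a minor population beside Kupffer cells, the resident macrophages.

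The gated cells took 2.46% (2.18 to 2.78%) of the control barcodes with at least 200 genes, 2.08% (1.79 to 2.39%) at day 1 and 0.267% (0.149 to 0.440%) at day 7. At day 7 the share was 9.24-fold lower than in control (ratio 0.108, interval 0.0597 to 0.182). At day 1 the ratio was 0.842 (0.695 to 1.02), which counting error alone does not separate from control. This value moved with the gate. It was 0.951 (0.766 to 1.18) among barcodes with at least 300 genes and 0.923 (0.676 to 1.26) when cells were thinned to 300 UMIs before the gate. It was 0.593 (0.450 to 0.777) when 3 gate genes were required. It was 0.418 (0.308 to 0.562) when barcodes with at least 2 markers of B cells, T cells, Kupffer cells, endothelial cells or plasmacytoid dendritic cells (pDC) were left out as possibly mixed, while the ratio at day 7 stayed between 0.0749 and 0.131 over the gates tried. Other dendritic cells were gated by at least 2 markers of their own, with Siglech among them for pDC and Cd209a for the cDC2 named next, or by at least 2 of the 4 mature genes. Cells gated as pDC numbered 103 in control, 117 at day 1 (share ratio 1.28, 0.970 to 1.68) and 11 at day 7 (0.197, 0.0955 to 0.368). Cells gated as type 2 conventional dendritic cells (cDC2) numbered 51, 22 and 14, with share ratios of 0.484 (0.280 to 0.813) and 0.507 (0.259 to 0.930). Mature dendritic cells numbered 44, 21 and 14, with share ratios of 0.536 (0.303 to 0.920) and 0.588 (0.297 to 1.09). The differences between these gates were not tested. All of these are shares of the barcodes recovered, so a lower share and a rise of other cells cannot be told apart.

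**Figure D1:**
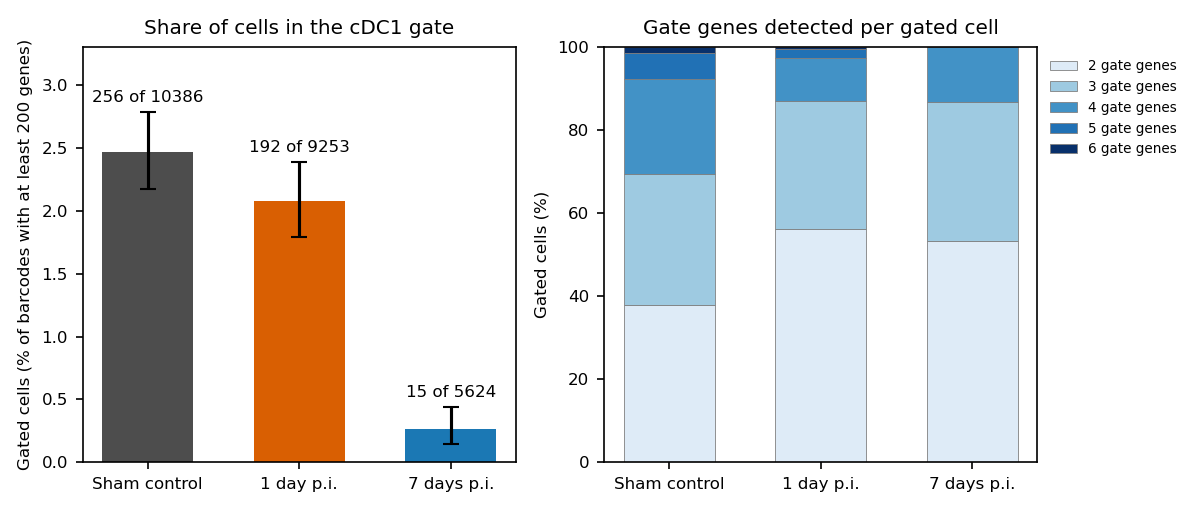
Left, share of barcodes with at least 200 genes that entered the cDC1 gate in each library, with exact binomial 95% intervals; right, share of gated cells with 2 to 6 of the gate genes detected. The bar at day 7 (15 of 5624 barcodes) lies far under those of control and day 1, and cells with only 2 gate genes made up 37.9% of control gated cells and 56.2% at day 1.

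The libraries held 10386, 9253 and 5624 barcodes with at least 200 genes, in the order control, day 1 and day 7, with a median of 456.5 to 595 UMIs. Gated cells had a median of 844.5, 795 and 636 UMIs, and 277363, 178907 and 11393 UMIs in all. Mitochondrial transcripts made up 14.6% of the UMIs of gated cells in control and 15.4% at day 1 but 2.43% at day 7, where all barcodes with at least 200 genes together gave 4.10%. Between 44 and 149 barcodes were shared by each pair of libraries, and no gated barcode was gated in another library.

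The edge of the gate was not sharp. Barcodes with 1 gate gene only, Xcr1 or Clec9a, numbered 134 in control, 2 of them with at least 2 mature genes, and 293 at day 1, and those with at least 2 gate genes but neither Xcr1 nor Clec9a numbered 164 and 61. The exclusion of mature cells removed 2 control cells and none of the other libraries. Of the gated cells, 3, 4 and 1 had under 210 genes, and 3, 4 and 0 barcodes that otherwise met the rule had 190 to 199 genes. Endothelial cells, taken as barcodes with at least 3 of 8 endothelial genes, should lack these receptors and gave the background. After each cell was thinned to 300 UMIs, Xcr1 was found in 0.0842% of 1188 control endothelial cells and in 0.428% of 2573 at day 1, and Clec9a in 0.337% and 1.01%. In gated cells they were found in 36.2% and 35.3% (Xcr1) and in 20.9% and 24.2% (Clec9a). Before thinning, endothelial cells gave 0.249% and 0.988% for Xcr1 and 0.994% and 2.43% for Clec9a, and gated cells 71.5% and 63.5% for Xcr1 and 50.8% and 56.8% for Clec9a. The background was higher at day 1, and its part in the gated cells of that library was not tested.

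The gate genes themselves were present at these levels. Xcr1 was at 1100 counts per 1000000 UMIs (CPM) in control gated cells, 1213 at day 1 and 1229 at day 7, and Clec9a at 544, 777 and 790. Irf8 was at 1226, 1369 and 2194 CPM. These 3 genes were not lower in the wound cells that were selected, while the lysosomal amidase gene Naaa stood at 919, 581 and 790 CPM. Itgae, which encodes the integrin subunit CD103 of tissue cDC1, was sparse, with 31, 19 and 2 UMIs.

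Wdfy4, whose product is needed for cross-presentation of cell-associated antigen, was the gate gene that differed most between control and day 1. It was at 458 CPM in control (127 UMIs), 140 at day 1 (25 UMIs) and 87.8 at day 7 (1 UMI), a ratio at day 1 of 0.305 (0.190 to 0.471). After thinning to 300 UMIs it was found in 15.7% of control gated cells and 2.11% at day 1, against 0.505% of endothelial cells in both libraries. In cells with at least 3 gate genes the ratio was 0.363 (0.214 to 0.587), and without mixed barcodes 0.342 (0.151 to 0.680). In the other barcodes Wdfy4 was at 30.5 and 23.3 CPM. Since Wdfy4 helped to choose the cells, these values are a description of the gated cells.

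The name of the gate was checked against genes it did not use. In control, 655 of 10798 genes (6.07%) were at least 2-fold higher in gated cells than in the other barcodes, against 8.35% at day 1 and 19.7% at day 7, where counts were few. Among genes with enough UMIs, the 3 with the highest ratio in the library where it was lowest were A530099J19Rik (19, 24 and 5 UMIs), Gcsam and Flt3. Gcsam, a lymphoid signalling adaptor also known from cDC1, was 23.8-fold higher than in other barcodes in control and 22.9-fold higher at day 1. Flt3, the receptor through which dendritic cells are sustained, was 10.2-fold higher in control, 22.8-fold at day 1 and 62.9-fold at day 7, there on 4 UMIs. Ppt1, a lysosomal thioesterase, followed at 7.44-, 8.20- and 8.45-fold. Cst3, which encodes the protease inhibitor cystatin C and is abundant in dendritic cells, reached 17140, 15807 and 22733 CPM, which was 7.41-, 9.15- and 13.5-fold above the other barcodes. Ifi205, Cxx1b, Btla, Amica1, Havcr2, Plbd1 and Olfm1 came next, each at least 4.85-fold higher in every library, though at day 7 Cxx1b rested on 1 UMI and Btla on 2. Btla and Havcr2 encode inhibitory receptors that cDC1 are known to carry. Because cells were chosen by expression, no test was made of these ratios.

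Other cDC1 genes differed in how far they were raised. Batf3, a factor that cDC1 development needs, was at 195, 173 and 263 CPM, 3.43-fold above other control barcodes. Id2, an inhibitor of helix-loop-helix factors with a role in dendritic cell development, was at 1255, 872 and 2019 CPM. Tlr3 and Tlr11, the receptors for double-stranded RNA and for a parasite protein, had 28 and 20 UMIs in control gated cells and were 8.22- and 21.5-fold above the other barcodes. Markers of neighbouring types were also read. The cDC2 marker Sirpa was at 68.5 CPM in control gated cells and 192 in the others, and the pDC marker Siglech at 43.3 and 38.5 CPM. The 8 pDC genes took 0.0404% of the UMIs of gated cells in control, 0.0665% at day 1 and 0.132% at day 7, ratios of 1.65 (1.26 to 2.15) and 3.26 (1.77 to 5.61) beside 1.27 and 0.772 in the other barcodes. In the order of the libraries, 14, 17 and 2 gated cells carried at least 2 of these 8 genes. With Tcf4 and Bst2 left out, 5, 6 and 1 cells carried at least 2 of the other 6, and in those of control Cst3 was at 2591 CPM. Cst3 was at 0 in 12, 30 and 1 gated cells, and MHC class II genes in 7, 14 and 2. A count of mixed barcodes used markers of B cells, T cells, Kupffer cells, endothelial cells and pDC, and no hepatocyte or neutrophil genes. At least 2 markers of 1 such type were in 87 of the 256 gated cells in control. At day 1 they were in 129 of 192 cells and at day 7 in 3 of 15. Cst3 was at 11721 CPM in the mixed cells and 22245 in the others in control, and at 13101 and 24173 CPM at day 1. The name cDC1 is therefore that of the gate, and part of the gated barcodes also held RNA of other types.

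**Figure D2:**
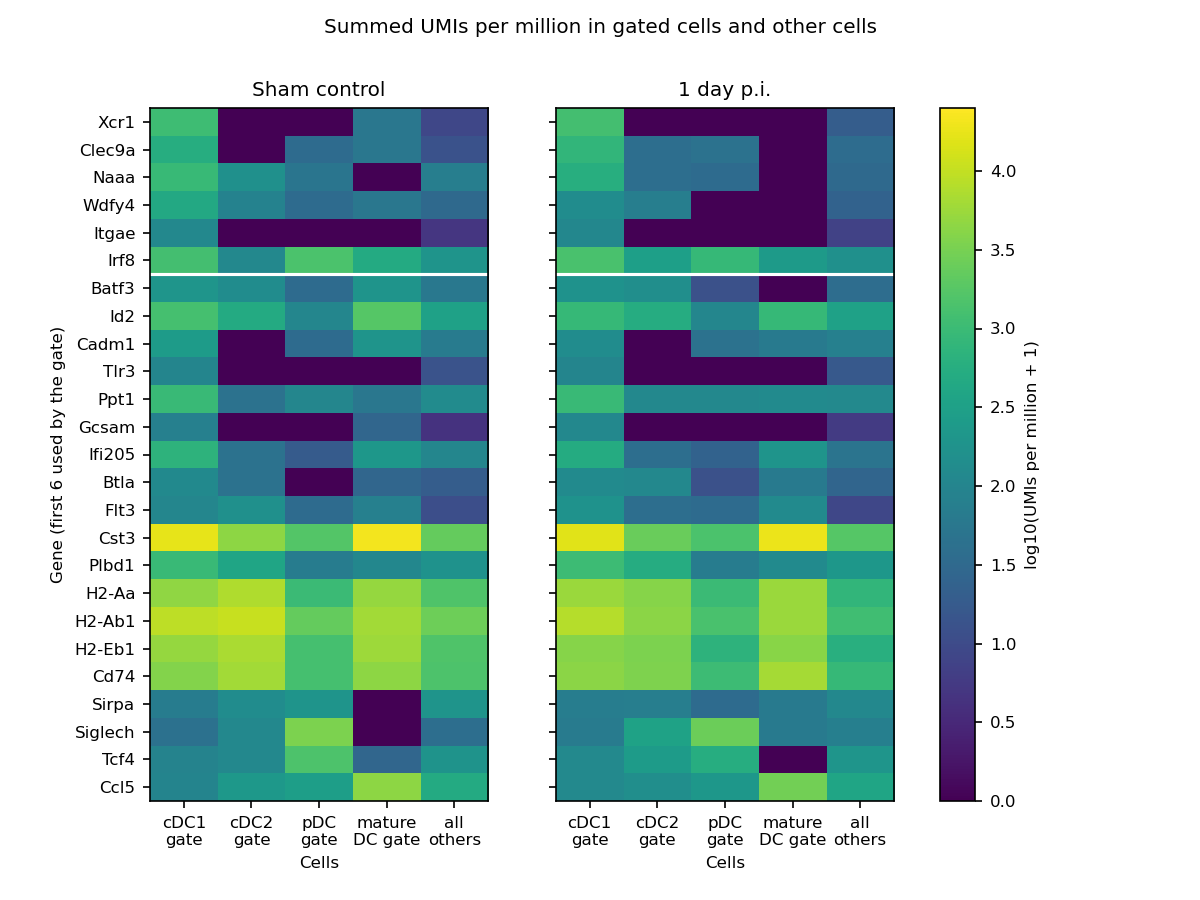
Summed UMIs as CPM, on a log10 scale after adding 1, for 25 genes in control (left) and at day 1 (right), in cells of the cDC1, cDC2, pDC and mature dendritic cell gates and in all other barcodes with at least 200 genes. The first 6 genes were used to choose the cDC1 cells, and below the white line Ppt1, Gcsam and Cst3 are brightest in the cDC1 gate among the non-mature gates while Siglech, which helped to choose the pDC, is brightest in their gate.

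Gated cells were not alike. In control, cells with 2 gate genes gave 0.352% of their UMIs to the other cDC1 genes, cells with 3 gave 0.552% and cells with 4 to 6 gave 0.596%. Kupffer cell genes went the other way, at 0.827%, 0.248% and 0.200%. At day 1 the other cDC1 genes took 0.259%, 0.513% and 0.557%, Kupffer cell genes 0.718%, 0.325% and 0.188%, and hepatocyte genes 2.60%, 0.879% and 0.731%. Most of the 2407 hepatocyte UMIs in the day 1 cells with 2 gate genes came from 1 cell, so the 2.60% rests largely on that cell.

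The receptor that admitted a cell also mattered. In control, the 126 cells with Xcr1 and without Clec9a had Cst3 at 20566 CPM, and the 57 cells with both receptors at 20844 CPM. The 73 cells with Clec9a and without Xcr1 had it at 9733 CPM, with Kupffer cell genes at 0.936% of UMIs against 0.243% in the cells with Xcr1 alone. At day 1, Cst3 stood at 17086, 21408 and 10629 CPM in the same order, while Kupffer cell genes took 0.578% in the cells with Clec9a and without Xcr1 and 0.589% in those with Xcr1 alone. In both libraries the cells with Clec9a and without Xcr1 had the lowest level of Cst3.

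**Figure D3:**
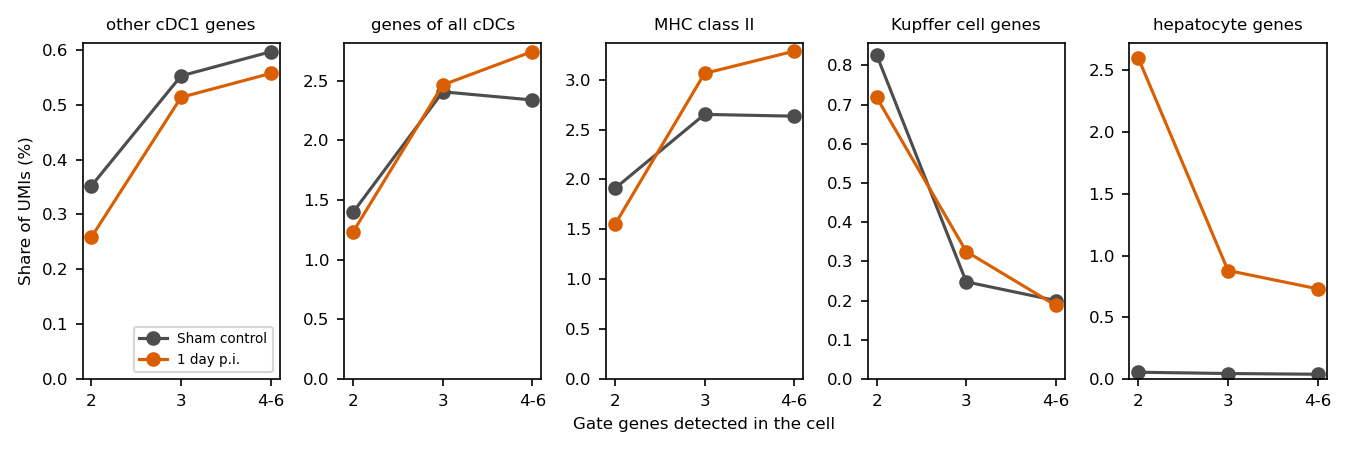
Share of UMIs (%) given to 5 gene lists by gated cells with 2, 3 or 4 to 6 gate genes, in control (grey) and at day 1 (orange), with a separate scale in each panel. Other cDC1 genes rise from 0.352% to 0.596% across the control cells while Kupffer cell genes fall from 0.827% to 0.200%. Hepatocyte genes stand out only at day 1, at 2.60% in cells with 2 gate genes, where most of these UMIs came from 1 cell.

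RNA of other cell types was measured in the gated cells because it moved with the groups. The 10 hepatocyte genes took 0.0465% of the UMIs of control gated cells, 1.75% at day 1 and 0.00878% at day 7, a ratio of 37.5 (31.5 to 45.1) at day 1 beside 16.3 in the other barcodes. Of the 3122 UMIs at day 1, 1487 came from 1 cell, but 98.4% of gated cells had at least 1. The 8 endothelial genes took 0.0508%, 0.236% and 0.0263%, with at least 1 UMI in 72.9% of gated cells at day 1. The 10 Kupffer cell genes took 0.436%, 0.507% and 0.0527%. Neutrophil genes took 0.176%, 0.143% and 2.5%, and at day 7 they were found in 14 of the 15 cells and were 10.1-fold above control in the other barcodes. Mesenchymal genes took 0.0699% in control, where 124 of their 194 UMIs were in 1 cell, and had 3 UMIs at day 1, a ratio of 0.0240 (0.00490 to 0.0711) beside 0.0385 in the other barcodes. The part of this RNA in the differences between libraries was not tested.

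MHC class II genes, which present antigen to CD4+ T cells, took a similar share of UMIs in gated cells of every library. In the other barcodes together the share was lower at day 1 and day 7 than in the control library. In the other barcodes their share went from 0.765% of UMIs in control to 0.370% at day 1 and 0.366% at day 7, ratios of 0.484 and 0.478. In gated cells it was 2.38%, 2.31% and 2.66%, with ratios of 0.972 (0.935 to 1.01) and 1.12 (0.992 to 1.25). The ratio at day 1 was 1.19 in cells with at least 3 gate genes and 1.20 without mixed barcodes. None of the 9 genes of the list with enough UMIs was called at day 1 and none of 7 at day 7, where 6.19% of all 2247 genes tested were called higher and 7.08% lower at day 1 and 15.6% higher and 8.97% lower of 1382 at day 7. The median log2 ratio of the list at day 1 was 0.02, beside -0.15 over all genes tested. Measured against the change in the other barcodes, 4 of 9 were at least 2-fold higher at day 1 and 6 of 7 at day 7, with a background of 6.14% and 13.5% called higher and 2.71% and 11.6% called lower on that scale. Cells gated as cDC2 gave 3.28%, 1.64% and 3.77% of their UMIs to the same genes, and cells of the mature gate 2.19%, 2.32% and 1.19%.

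H2-Ab1, the beta chain of the I-A molecule, was at 9125 CPM in control gated cells, 7993 at day 1 and 9216 at day 7, against 2674, 1140 and 1160 in the other barcodes. H2-Aa, its alpha chain, was at 4608, 5545 and 7022 CPM against 1520, 776 and 836. H2-Eb1 of the I-E molecule was at 5040, 3991 and 4828 CPM against 1529, 600 and 588. None of them passed the 2-fold call at day 1. The ratios were 0.876 (0.820 to 0.935) for H2-Ab1, 0.792 (0.723 to 0.867) for H2-Eb1 and 1.20 (1.11 to 1.31) for H2-Aa. In cells with at least 3 gate genes they were 1.08 (0.993 to 1.16), 0.955 (0.855 to 1.07) and 1.48 (1.34 to 1.64). Cd74, the invariant chain that escorts class II molecules, had a ratio of 1.14 (1.04 to 1.25). After thinning to 300 UMIs, H2-Ab1 was found in 87.4% of control gated cells and 73.2% at day 1, beside 19.4% and 18.3% of endothelial cells. H2-DMa and H2-DMb1, which exchange the peptides, had ratios of 1.26 (0.963 to 1.64) and 0.971 (0.713 to 1.31). Ciita, the coactivator on which class II expression depends, was at 133 CPM in control and 83.8 at day 1, a ratio of 0.629 (0.320 to 1.17) that counting error alone does not separate from 1, and at 4.39-fold above the other control barcodes it was among the 20 genes that stood out in the gated cells.

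Class II promoters are known for a shared module of X and Y boxes, bound by the RFX and NF-Y complexes and read by CIITA, and these genes were searched for it. The sequences are the 250 bases before the start in the RefSeq annotation of GRCm38.p6, 5′ to 3′ on the strand of the gene. Capitals mark matches, on either strand, to an X box form (AG, any 2 bases, AC, any 1 base and GATG) and to the Y box core CCAAT, which reads ATTGG on the opposite strand.
H2-Eb1 (chr17:34305617-34305866, plus strand): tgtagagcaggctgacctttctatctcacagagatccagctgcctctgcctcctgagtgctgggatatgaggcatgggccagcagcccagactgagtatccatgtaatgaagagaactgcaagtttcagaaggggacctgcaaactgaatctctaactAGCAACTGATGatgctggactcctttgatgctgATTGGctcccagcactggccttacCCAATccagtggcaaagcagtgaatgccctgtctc
H2-DMb1 (chr17:34152941-34153190, plus strand): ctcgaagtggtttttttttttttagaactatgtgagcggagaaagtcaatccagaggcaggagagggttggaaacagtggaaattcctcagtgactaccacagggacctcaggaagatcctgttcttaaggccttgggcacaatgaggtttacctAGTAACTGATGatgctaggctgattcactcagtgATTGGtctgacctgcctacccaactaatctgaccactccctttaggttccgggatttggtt
H2-Aa (chr17:34287824-34288073, minus strand): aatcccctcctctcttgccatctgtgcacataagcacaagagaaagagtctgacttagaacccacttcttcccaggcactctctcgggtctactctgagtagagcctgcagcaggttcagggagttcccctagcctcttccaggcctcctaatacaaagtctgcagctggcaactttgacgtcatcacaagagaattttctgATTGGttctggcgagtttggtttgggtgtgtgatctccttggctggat
In H2-Eb1 the X box began 92 bases before the start and a Y box 59 bases before it, and in H2-DMb1 they stood at 95 and 61 bases, so the spacing was nearly the same. H2-Eb1 held another CCAAT between these and the start. H2-Aa held the Y box at 48 bases and no match to this X box. Of the 11 class II genes listed, 8 had an entry, and all 8 held CCAAT while 4 (H2-Eb1, H2-Eb2, H2-DMb1 and H2-Oa) held the X box. Over all 27025 genes with an entry, 0.958% held the X box and 37.5% held CCAAT in at least 1 of their windows. In the 5 gate genes with an entry no match was found to a tandem motif of IRF type (GAAA, any 2 bases and GAAA) or to TGANTCA, a motif of AP-1 and BATF type, which occurred in 3.46% and 7.82% of all genes. Among 15 of the 20 leading genes the former was found in Ifi205 and Phf11a and the latter in Havcr2. A match describes the letters of the window only.

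**Figure D4:**
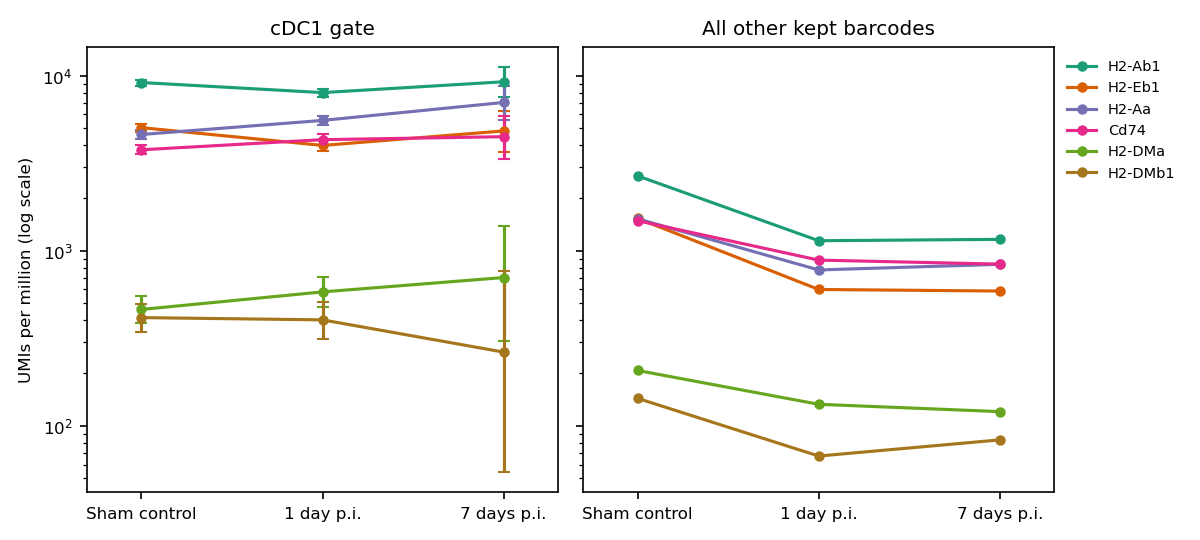
CPM (log scale) of 6 MHC class II genes in gated cells (left, with exact Poisson 95% intervals) and in all other barcodes with at least 200 genes (right), by library. In gated cells H2-Ab1 stays between 7993 and 9216 CPM, while in the other barcodes it drops from 2674 to 1140 at day 1.

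The class I pathway is the one through which cDC1 address CD8+ T cells. Its 23 genes took 1.41% of UMIs in control gated cells, 1.36% at day 1 and 1.76% at day 7. Its ratio at day 1 was 0.963 (0.915 to 1.01), with a median log2 ratio of -0.22 over its genes. Of 20 genes tested at day 1 only H2-T22 was called, lower, on 8 against 26 UMIs, beside 7.08% of all genes. At day 7 the ratio was 1.25 (1.08 to 1.45), and of 17 genes tested H2-D1, H2-Q6 and Tap2 were called higher and Tap1 and Psmb10 lower, beside 15.6% and 8.97% of all genes. B2m, the light chain, was at 3209, 3784 and 4301 CPM, and the heavy chain gene H2-D1 at 1954, 2258 and 3950. The immunoproteasome subunit gene Psmb8 was at 1136 CPM in control and 632 at day 1, a ratio of 0.556 (0.445 to 0.692) beside 0.471 in the other barcodes. The proteasome activator genes Psme1 and Psme2 had ratios of 0.606 (0.474 to 0.770) and 0.667 (0.504 to 0.876) beside 0.661 and 0.501 elsewhere. None of these 3 passed the 2-fold call, and without mixed barcodes the ratio of Psmb8 was 0.716 (0.493 to 1.02).

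Genes of uptake and processing took 2.54%, 2.24% and 2.98% of UMIs, with Cst3 the most abundant among them. The ratio at day 1 was 0.882 (0.849 to 0.917), and it turned to 1.02 in cells with at least 3 gate genes. Of 19 tested at day 1 only Rab43, a GTPase known to aid cross-presentation in these cells, was called: it had 43 UMIs in control and 11 at day 1, a ratio of 0.397 (0.184 to 0.782) beside 0.908 in the other barcodes. Over all genes 7.08% were called lower. Its ratio was 0.426 (0.159 to 0.976) in cells with at least 3 gate genes and 0.373 (0.0964 to 1.04) without mixed barcodes. Ctss, the cathepsin that trims the invariant chain, was at 1435, 805 and 878 CPM. Its ratio at day 1, 0.561 (0.460 to 0.680), came beside 0.427 elsewhere. Cybb and Cyba, subunits of the NADPH oxidase, had ratios of 0.620 and 0.685. At day 7 the ratio of the list was 1.18 (1.05 to 1.31). Of 18 genes tested then, Lgmn, Ctsh and Cd36 were called lower and none higher, beside 8.97% and 15.6% of all genes.

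The other genes of cDC1 identity took 0.498% of UMIs in control, 0.388% at day 1 and 0.676% at day 7, ratios of 0.780 (0.711 to 0.855) and 1.36 (1.06 to 1.71). The first of these was 0.912 in cells with at least 3 gate genes, and the median log2 ratio over the genes was -0.28. Of 14 tested at day 1, Sept3, Cd24a and Fgd2 were called lower and Cxx1b higher, where 7.08% and 6.19% of all genes tested were. Sept3, a septin, had 39 UMIs in control and 9 at day 1, a ratio of 0.358 (0.152 to 0.751) beside 0.887 in the other barcodes. It was 0.428 (0.145 to 1.05) in cells with at least 3 gate genes and 0.350 (0.0681 to 1.13) without mixed barcodes. Cd24a, a surface sialoglycoprotein of this lineage, had 87 and 25 UMIs and a ratio of 0.445 (0.274 to 0.702) beside 1.09, but 0.589 (0.279 to 1.13) without mixed barcodes. The ratio of Fgd2 was 0.473 (0.263 to 0.813), and it was 0.625 (0.308 to 1.18) in cells with at least 3 gate genes and 0.177 (0.0206 to 0.684) without mixed barcodes, there on 2 UMIs at day 1. The adhesion gene Cadm1 had 72 and 25 UMIs and a ratio of 0.538 (0.327 to 0.859). With at least 3 gate genes that ratio was 0.538 (0.268 to 1.005), and without mixed barcodes 0.502 (0.206 to 1.07). Ppt1 (0.983), Tlr3 (0.997), Btla (1.05) and Batf3 (0.890) stood near 1. Of 10 genes tested at day 7, Ifi205 was called higher and Cadm1 lower, the latter on 1 UMI, beside 15.6% and 8.97% of all genes.

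Genes shared by all conventional dendritic cells took 2.02%, 1.87% and 2.71% of UMIs, most of them from Cst3. The ratio at day 1 was 0.927 (0.888 to 0.968), and it turned to 1.08 in cells with at least 3 gate genes. Of 11 tested at day 1 the transcriptional corepressor gene Cbfa2t3 (0.490, 0.271 to 0.844), Cytip and Basp1 were called lower and none higher, where 7.08% and 6.19% of all genes were. Of 9 tested at day 7, Flt3 and Cytip were called higher and Spi1 lower, on 4, 3 and 1 UMIs there, beside 15.6% and 8.97% of all genes, and all 3 intervals held 1. Flt3 had 29, 31 and 4 UMIs and a ratio of 1.66 (0.966 to 2.85) at day 1, beside 0.743 in the other barcodes. Plbd1, a phospholipase gene, had a ratio of 1.06 (0.878 to 1.29). The 17 costimulation genes, which include the 4 mature genes limited by the gate, had 127, 78 and 13 UMIs. They took 0.0458% of the UMIs of control gated cells, against 0.0486% in the other barcodes and 1.22% in the mature gate. The ratio of this share was 0.952 (0.709 to 1.27) at day 1 and 2.49 (1.29 to 4.42) at day 7, beside 0.779 and 1.91 in the other barcodes. Cd86, the ligand of CD28, had 38, 20 and 2 UMIs.

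Of the chemokine receptors other than Xcr1 only Ccr2, through which cells leave the marrow and enter inflamed tissue, was well counted. It was at 490 CPM in control gated cells, 235 at day 1 and 176 at day 7, the last on 2 UMIs. The ratio at day 1 was 0.479 (0.330 to 0.681), beside 0.182 in the other barcodes. It was 0.553 (0.348 to 0.852) with at least 3 gate genes and 0.576 (0.309 to 1.005) without mixed barcodes. After thinning, 12.2% of control gated cells and 5.26% at day 1 had a UMI of Ccr2, with 3.62% and 1.28% of endothelial cells.

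Interferon response genes had a ratio of 1.09 (0.974 to 1.23) at day 1 for their summed share, while the median log2 ratio over those tested was -0.44. Bst2, which tethers virions and is also in the pDC list, had a ratio of 1.78 (1.21 to 2.63), and Ifitm3, an antiviral membrane protein gene, of 1.54 (1.23 to 1.93), beside 1.18 and 1.17 in the other barcodes, and neither passed the 2-fold call. Without mixed barcodes both did, at 2.08 (0.683 to 5.87) for Bst2 and 2.35 (1.43 to 3.82) for Ifitm3, and Bst2 was at 2.16 (1.15 to 4.07) with at least 3 gate genes. The transcription factor gene Irf1 (0.434, 0.222 to 0.798) and the nucleic acid sensor gene Zbp1 (0.388, 0.164 to 0.820) were called lower, of 13 tested, where 7.08% of all genes were called lower. At day 7 the summed share had a ratio of 1.57 (1.14 to 2.11) beside 1.92 in the other barcodes. Of 8 tested then, Bst2 (4.13, 1.79 to 8.45) and Ifitm3 (2.89, 1.70 to 4.66) were called higher and none lower, beside 15.6% and 8.97% of all genes. Rsad2, an antiviral enzyme gene with fewer than 30 UMIs in all, had 7 UMIs in control and 18 at day 1, a ratio of 3.99 (1.59 to 11.3) beside 1.49. Without mixed barcodes it had 0 UMIs in control and 2 at day 1, too few for a ratio.

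Cell division genes took 0.463%, 0.342% and 0.263% of the UMIs of gated cells, the last on 30 UMIs, against 0.308%, 0.154% and 0.147% in the other barcodes. The ratio at day 1 was 0.738 (0.670 to 0.814) beside 0.500 in the other barcodes. Mki67, a mark of cycling cells, had 118, 37 and 2 UMIs, with a ratio at day 1 of 0.486 (0.327 to 0.709), and the topoisomerase gene Top2a had 137, 39 and 2 UMIs, with a ratio of 0.441 (0.301 to 0.634), or 0.508 (0.267 to 0.897) without mixed barcodes. In the other barcodes the same ratios were 0.380 and 0.320. Cenpe, a kinetochore motor gene, was the third of 13 genes called lower at day 1, beside 7.08% of all genes, and Pcna (1.31) and Tuba1b (1.35) were not lower. After thinning, Top2a was found in 10.6% of control gated cells and 5.26% at day 1, against 2.69% and 1.79% of endothelial cells. Leaving out mixed barcodes brought the ratio of Mki67 to 0.634 (0.321 to 1.16).

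Heat shock genes were lower at day 1 in gated cells and in the rest, with ratios of 0.676 (0.629 to 0.726) and 0.699. Hsp90aa1, the inducible form of HSP90, was at 948, 324 and 527 CPM, a ratio at day 1 of 0.342 (0.253 to 0.456) beside 0.412, and was the only gene called of 7 tested, where 7.08% of all genes were called lower. Without mixed barcodes its ratio was 0.507 (0.290 to 0.837), which does not pass the call. Chordc1, a cochaperone gene of HSP90, had 33 and 4 UMIs, a ratio of 0.188 (0.0484 to 0.528) beside 0.639.

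**Figure D5:**
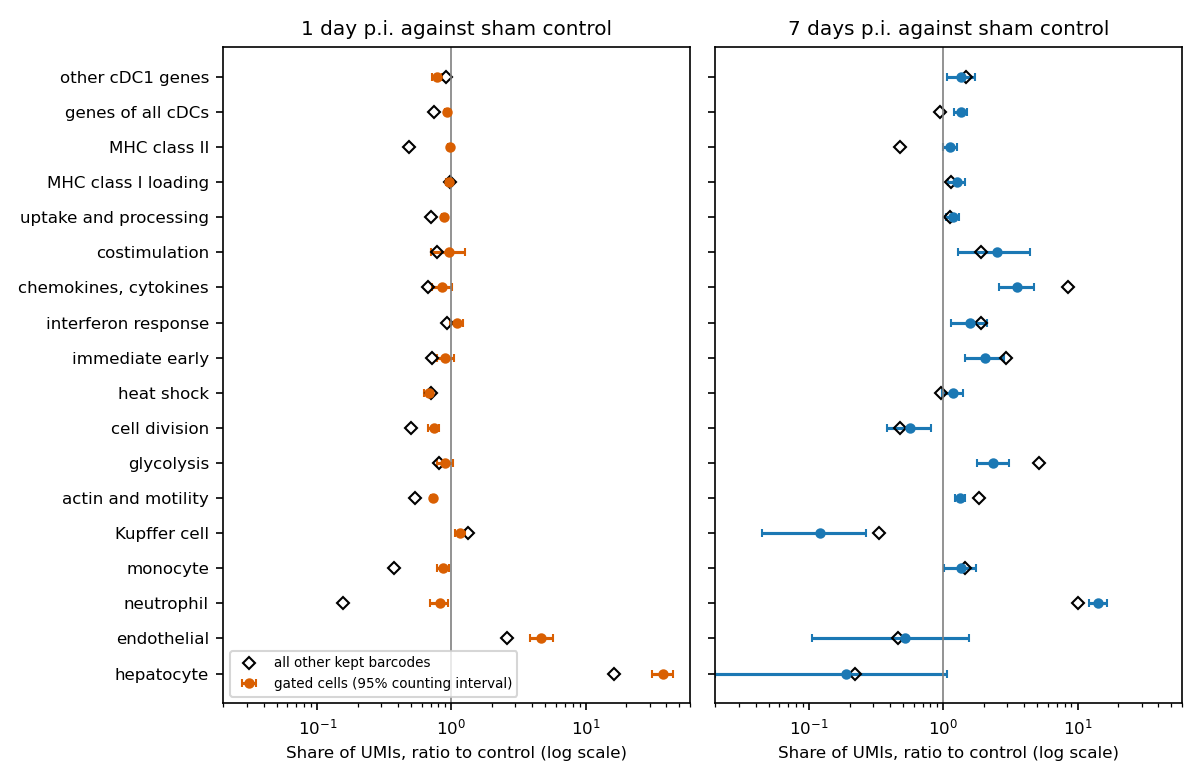
Ratio to control (log scale) of the share of UMIs given to each gene list shown in gated cells (filled circles, 95% counting intervals, whose left ends stop at the edge of the axis) and in all other barcodes with at least 200 genes (open diamonds), at day 1 (left) and day 7 (right). MHC class II stands at 0.972 in gated cells and 0.484 in the others at day 1, while hepatocyte genes at day 1 and neutrophil genes at day 7 stand far above 1 in both.

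Over all genes at day 1, 139 were called higher and 159 lower, and the counting interval left out 1 for 128 and 131 of them. Of those called higher, 100 were also at least 2-fold higher in the other barcodes. Of those called lower, 41 were also at least 2-fold lower there. The 10 genes of the hepatocyte list were all called higher. Outside that list the 10 with the largest rise were Fabp1, Rbp4, Serpina1b, Pck1, Mup3, Serpina1e, Adh1, Vtn, Kng1 and Ambp, all known products of hepatocytes. Fabp1, a fatty acid carrier, had 206 UMIs at day 1 and 2 in control, and Mup3 had 152 and 0 UMIs, at least 78.5-fold higher on a floor of 3 counts per library. They were 8.81- to 38.1-fold higher in the other barcodes. Between 17 and 91 UMIs of each lay in 1 cell.

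The largest falls held matrix and macrophage genes among others. Col1a2, Col3a1 and Col1a1 had 70, 46 and 33 UMIs in control and 1, 1 and 0 at day 1, with 47, 29 and 25 of the control UMIs in 1 cell. Gpnmb and Mmp12, genes of lipid-laden and wound macrophages, had 56 and 50 UMIs in control and 0 at day 1, with ratios of 0.00717 and 0.0174 in the other barcodes. Col1a2 was at 863 CPM in the other barcodes of control and 12.5 at day 1, and Gpnmb at 447 and 3.20. Mesenchymal genes had ratios there of 0.0385 at day 1 and 0.0243 at day 7. Why the control library held most of this matrix RNA was not tested, and every ratio to control rests on that library. In gated cells Cd63 had 36 and 3 UMIs. The platelet and Kupffer cell chemokine gene Pf4 had 54 and 4 UMIs, with 17 in 1 control cell, and without mixed barcodes 5 and 1 UMIs, a ratio of 0.653 (0.0138 to 5.84). By contrast, the 38 control UMIs of Stat3, which encodes the transcription factor downstream of IL-6 and IL-10, were spread over 35 cells, with 4 UMIs at day 1. Its ratio was 0.163 (0.0423 to 0.453) beside 0.703 in the other barcodes. Casc5, a kinetochore gene, had 31 and 4 UMIs beside a ratio of 0.424 elsewhere, and a ratio of 0.653 (0.121 to 2.31) without mixed barcodes.

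Relative to the change in the other barcodes, 138 genes were higher and 61 lower. Besides Stat3, Pf4 and Chordc1, the lowest included Mycl, Ranbp2, Synrg, Efr3a, Rsbn1 and Dnajc21. Mycl, a MYC family gene known to act in cDC1, had 22 and 8 UMIs, a ratio of 0.564 (0.217 to 1.31) while the other barcodes rose 2.31-fold. Efr3a, a scaffold of a lipid kinase at the plasma membrane, had 47 and 9 UMIs, a ratio of 0.297 (0.128 to 0.613) beside 0.935, and these UMIs lay in 37 and 8 cells. S100a9 and S100a8 were high on this scale since they dropped further elsewhere, and 40 of 89 and 58 of 110 UMIs were in 1 cell at day 1.

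At day 7 the 15 gated cells gave few counts: of 1382 genes tested 874 had at most 3 UMIs there and 212 had none. Of the 216 called higher the interval left out 1 for 80, and of the 124 called lower for 16. With mitochondrial genes left out of the totals 157 were higher and 159 lower. The median log2 ratio was -0.08 with genes at 0 set lowest and 0.36 with them at the floor. This comparison and that at day 1 share the control library.

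The genes with the largest rise at day 7 were Cxcl2, Retnlg, S100a9, S100a8, Zfp36, Rnh1, Csf2ra, Mrpl14, Selplg and Srgn. Retnlg, S100a9 and S100a8, products of neutrophils, were 23-, 13.1- and 13-fold higher, beside 12.7-, 9.70- and 10.7-fold in the other barcodes. Cxcl2, a neutrophil attractant, had 20 UMIs in 9 cells against 11 in control, 44.3-fold (20.2 to 102) beside 89.2-fold elsewhere. Zfp36, which destabilises cytokine mRNA, had 10 UMIs in 6 cells, 9.36-fold higher (4.03 to 20.1) beside 3.36-fold. Csf2ra, the receptor chain for GM-CSF, had 8 UMIs in 5 cells, 6.28-fold higher (2.5 to 14.0) beside 3.39-fold. Glycolysis genes were 2.35-fold higher (1.77 to 3.07), beside 5.2-fold, with Gapdh, Ldha, Aldoa, Eno1 and Mif called higher of 8 tested, where 15.6% of all genes were.

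Among the largest falls at day 7, C1qb, Clec4f and Marco of Kupffer cells had 271, 189 and 184 UMIs in control and 1 UMI each in the wound cells. A gene at 0 was set to 3 counts and so ranked as a smaller fall than it would on 1 UMI. The Kupffer cell list had a ratio of 0.121 (0.0442 to 0.264) at day 7 beside 0.331 in the other barcodes, and 1.10 on 4 UMIs without mixed barcodes, a setting that removes cells by these same genes. Lpl, a lipase gene, had 148 and 1 UMIs. Apoe, an apolipoprotein gene of macrophages and hepatocytes, had 1204 and 11 UMIs, a ratio of 0.222 (0.111 to 0.399) beside 0.403. Hmgb2, a chromatin protein gene high in dividing cells, had 373, 122 and 3 UMIs in the order of the libraries, ratios of 0.507 (0.410 to 0.624) and 0.196 (0.0402 to 0.577) beside 0.307 and 0.494. Cox6c, a subunit of cytochrome oxidase, had 176 and 1 UMIs, beside a ratio of 0.928. Ppig, 4930506M07Rik and Hint1 had 110, 100 and 97 UMIs in control and 1 UMI each, and their intervals held 1.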

How the data were processed

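Per the labels, Drop-seq was run on pooled liver tissue of 3 groups with 1 library each. The authors aligned the reads, for which the submitters' processing notes name STAR 2.5.2a and the human build hg19 although the samples and gene symbols are those of mouse, so no coordinates were taken from the files. The deposited tables hold raw UMI counts per gene and barcode, made per the file headers by the Drop-seq tools from sense-strand coding and untranslated bases, without normalization. The headers name a minimum of 200 genes per barcode, but barcodes with as few as 11 genes are present, so 200 was applied here. Overlapping and near-identical genes may share reads.

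UMIs of gated cells were summed per library and divided by their total (counts per 1000000 UMIs, CPM). Sums have exact Poisson, shares exact Clopper-Pearson and ratios conditional binomial intervals. A gene was called at a ratio of at least 2 or at most 0.5 with at least 30 UMIs in both libraries together, and a gene at 0 was set to 3 counts. Thinned values drew 300 UMIs per cell and left out shallower ones. No doublet caller was run, and barcodes carrying at least 2 markers of another type were left out as an alternative. The genes named are the gate genes, members of the lists with at least 10 UMIs in 1 library, the 10 largest rises and falls per time (hepatocyte-list, erythroid and mitochondrial genes apart, also relative to the other barcodes) and the 20 genes outside the gate with the highest ratio over other barcodes. A gene that this rule names is not reported here. The gate, the gene lists and these rules were chosen with earlier results of these data known. The relative ratio was added after seeing the data. Promoters came from RefSeq (GRCm38.p6). Scripts ran in Python 3.11.15 with scipy 1.17.1 and were tested on simulated counts.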

Additional observations from a re-analysis of the deposited data

Results flagged for a closer look

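Signal of the gate's receptors was also present outside the gate. At day 1 96 barcodes, 1.04% (0.841 to 1.27%) of those with at least 200 genes, had Xcr1 as their only gate gene, against 50 (0.481%, 0.358 to 0.634%) in control. Clec9a was the only gate gene of 197 barcodes, 2.13% (1.84 to 2.44%), at day 1, against 82 (0.790%, 0.628 to 0.979%) in control. Both drew attention because barcodes outside the gate, which entered the comparisons only among the other barcodes, carried these receptors more often at day 1 than in the control library. At day 7 they did so less often, with 2 barcodes with Xcr1 only (0.0356%, 0.00431 to 0.128%) and 8 with Clec9a only (0.142%, 0.0614 to 0.280%). Barcodes with at least 2 mature genes are not counted here. Endothelial cells, taken as the background, carried Xcr1 in 0.249% of cells in control and 0.988% at day 1, and Clec9a in 0.994% and 2.43%. The part of this background in the barcodes outside the gate was not tested. In the barcodes with Clec9a only, Cst3 was at 2407 CPM in control and 2307 CPM at day 1, against 17140 and 15807 CPM in gated cells. In those with Xcr1 only, it was at 9171 and 5104 CPM.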

How the results depend on the processing

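With 3 libraries of 1 per group, leaving out a replicate was not possible. No paired analysis was possible because each group has 1 sample. Of 121 main values under another setting, 66 stayed within the counting interval of the main value or, for numbers of genes called, near it. Another 51 moved further and 4 reversed. Of 222 other values, 182 stayed, 37 moved and 3 reversed. The ratios of class II at day 1 and day 7 and of class I at day 1, whose main intervals held 1, also crossed 1 under some settings. These are counted as having stayed or moved, not as reversed. The causes were not tested. Gated shares in control, at day 1 and at day 7 were 1.71%, 1.18% and 0.128% with no minimum of genes, 1.53%, 0.908% and 0.124% with at least 3 gate genes, and 0.943%, 0.871% and 0.0984% after thinning to 300 UMIs. In control and at day 1 they were 3.36% and 3.19% with at least 300 genes, 1.91% and 1.17% without Irf8 and Itgae, and 1.63% and 0.681% without mixed barcodes. The share ratio at day 1 was 0.688 with no minimum of genes, 0.593 with at least 3 gate genes, 0.612 without Irf8 and Itgae, 0.418 without mixed barcodes, 0.951 with at least 300 genes and 0.923 after thinning. Genes called higher and lower at day 1 numbered 56 and 96 with at least 3 gate genes, 36 and 84 without mixed barcodes, 434 and 393 at a minimum of 15 UMIs, 57 and 51 at 60, 37 and 39 after thinning, and 61 were lower relative to the other barcodes (138 higher). At day 7 they numbered 139 and 66, 98 and 65, and, after thinning, 47 and 30, with 520 and 124 at 15 UMIs and 79 and 85 at 60. At day 1 the ratio with at least 3 gate genes was 0.912 for other cDC1 genes, 1.08 for genes of all cDC (reversed), 1.19 for MHC class II and 1.02 for uptake (reversed); without mixed barcodes it was 0.878, 1.08 (reversed), 1.20 and 1.07 (reversed), and 1.05 for class I. As a mean over cells it was 0.814 for genes of all cDC, 0.898 for class II, 1.01 for class I and 0.843 for uptake. At day 7 class II was at 1.30 with at least 3 gate genes, and without mitochondrial genes genes of all cDC were at 1.17, class II at 0.977 and uptake at 1.03. Kupffer cell genes at day 7 reversed to 1.10 and B cell genes at day 1 to 0.762 without mixed barcodes, a setting that removes cells by these genes, and neutrophil genes at day 1 to 1.24 with at least 3 gate genes. Depth limits the 15 cells at day 7 most, where 11393 UMIs were counted.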

Other observations

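Lymphoid RNA in the gated cells was sparse. The 8 B cell genes took 0.0227% of the UMIs of control gated cells, 0.0458% at day 1 and 0.0263% at day 7, from 63, 82 and 3 UMIs. Actin and motility genes had a summed ratio at day 1 of 0.730 (0.705 to 0.755) beside 0.536 in the other barcodes, and S100a6 was the only gene called of 16 tested, lower, where 7.08% of all genes were. At day 7 the ratio was 1.32 (1.21 to 1.44) beside 1.84, and Actg1, Coro1a, S100a6, Lgals1, Lgals3 and Anxa2 were called higher of 16 tested and none lower, where 15.6% and 8.97% of all genes were. In gated cells of control, day 1 and day 7 the C-C chemokine gene Ccl6 had 81, 32 and 16 UMIs, which is 292, 179 and 1404 CPM, and it was called higher at day 7 (4.81-fold, 2.62 to 8.29, beside 9.34-fold in the other barcodes). Il1b had 19, 11 and 8 UMIs, which is 68.5, 61.5 and 702 CPM, too few over control and day 7 for a call.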
